A study of Homo sapiens with 6 samples.

Results

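The genes described here copy the genome in S phase. They are 38 genes named for their role in DNA replication, chosen by function from a list of symbols, out of 28181 genes listed for each library. RNA was sequenced from UE7T-9 cells, a human mesenchymal stem cell line from bone marrow. The line was immortalized with the telomerase gene hTERT and the E7 gene of a human papillomavirus. The 3 UE7T-9 SHC4 libraries came from cells infected with a lentivirus that expresses the coding region of SHC4, an adaptor protein of the SHC family, from a CMV promoter with a puromycin marker. The 3 UE7T-9 Cont libraries are labelled nontarget with genotype WT, and in the study's methods these cells received green fluorescent protein in the same vector. Both groups were grown in DMEM, and no time after infection is given. The SHC4 cells are called clones in the design text and the libraries are numbered as biological replicates, but separate infections or clones within a group are not described, so the p-values below measure only the spread between these samples. Below, the UE7T-9 Cont libraries are also called the controls, and values are given in the order of replicates 1, 2 and 3.

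Replication is prepared in G1, when the origin recognition complex, CDC6 and CDT1 load the MCM2-7 ring onto DNA. In S phase CDC45 and the GINS complex turn the ring into an active helicase, polymerases copy both strands, and the PCNA clamp holds them on the template. Most of these genes are transcribed around the G1/S boundary by E2F factors, which RB proteins hold back and which E7 sets free by binding RB. In RNA from a whole culture, fewer cells in S phase and less RNA of a gene per cell cannot be told apart.

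All values are normalized counts, which are the reads of a gene divided by a size factor for the library, and fold changes are on the log2(normalized count + 1) scale as UE7T-9 SHC4 minus UE7T-9 Cont. Depth ran from 18144993 to 27721397 reads. SHC4 itself had 56.5, 157 and 129.9 in the controls against 134870.0, 119166 and 155006 with SHC4 (limma log2 fold change 10.32, Benjamini-Hochberg adjusted p = 2.09e-06), so the targeted gene followed the labels in all 6 libraries. All 8 stromal markers were detected, with sums of 622077, 258316 and 204587 in the controls against 562624, 377735 and 379001 with SHC4. The leukocyte gene PTPRC reached at most 7 reads in a library, SPI1 at most 3, the endothelial CDH5 at most 1 and the epithelial EPCAM at most 5. Other markers of these lists reached more. The most reads in a library were 60 for CD34 and 82 for CD14, of the hematopoietic list. They were 44 for PECAM1, 75 for KDR and 71 for VWF, of the endothelial list, and 20 for CDH1, 40 for KRT8 and 114 for KRT18, of the epithelial list. The 4 hematopoietic markers tested summed to 122 to 142 in the controls against 109 to 116 with SHC4, the endothelial markers to 121 to 144 and 88.8 to 143, and the epithelial markers to 68.3 to 166 and 13.3 to 64.2. UE7T-9 Cont replicate 1 stood apart: it correlated more with UE7T-9 SHC4 replicate 1 (r = 0.9745 across genes on the log2 scale) than with its own group's replicate 2 (r = 0.9668) or replicate 3 (r = 0.9622). Its correlations with UE7T-9 SHC4 replicates 2 and 3 (r = 0.9692 and 0.9684) were also above those with its own group. UE7T-9 SHC4 replicate 1 correlated more with its own group (r = 0.9783 with replicate 2 and 0.9751 with replicate 3). Results are also given without UE7T-9 Cont replicate 1 and, because both libraries numbered 1 were the highest of their groups in most members, without both, an alternative chosen after seeing the data.

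Replication genes were mostly lower in UE7T-9 SHC4, while their summed level overlapped between the groups. All 38 passed the filter on low values, with 130 to 9872 reads in a library, and 35 had a log2 fold change below 0, against 50.3% of the 23040 genes tested. Their median log2 fold change was -0.24, beside -0.004 over all genes tested. Their summed normalized count was 89359, 72698 and 67873 in the controls against 70346, 59642 and 59009 with SHC4, so UE7T-9 SHC4 replicate 1 lay above UE7T-9 Cont replicate 3 and the groups overlapped. As a share of all normalized counts the members made up 0.383%, 0.340% and 0.337% against 0.304%, 0.258% and 0.253%, and on this scale the groups did not overlap. Such a share amounts to scaling by library size, which also moved genes in general down in UE7T-9 SHC4. With that scaling 13706 of the 23040 genes tested were below 0, with a median of -0.10.

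Whether single members were called depended on the test. The limma test with Benjamini-Hochberg adjustment called 0 members, where it called 15 of all genes (0.0651%), and the smallest adjusted p of a member was 0.0940, for CDC6. edgeR called 0 as well, against 0.0694% of the genes it tested. DESeq2 on the recovered reads called 9 of the 38 members lower (23.7%) and 0 higher, against 2.08% of its genes called lower, and the 9 were ORC1, CDC6, GINS1, PCNA, RFC3, FEN1, CLSPN, RRM1 and RRM2. At an unadjusted limma p below 0.05, 16 members were lower (42.1%, against 6.96% of all genes) and 0 were higher. In 15 members (39.5%) every UE7T-9 SHC4 library lay below every UE7T-9 Cont library, which was so for 10.2% of all genes, and in no member did the groups separate the other way. With 3 libraries against 3, an exact two-sided permutation test of one gene cannot go below p = 0.1.

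**Figure D1:**
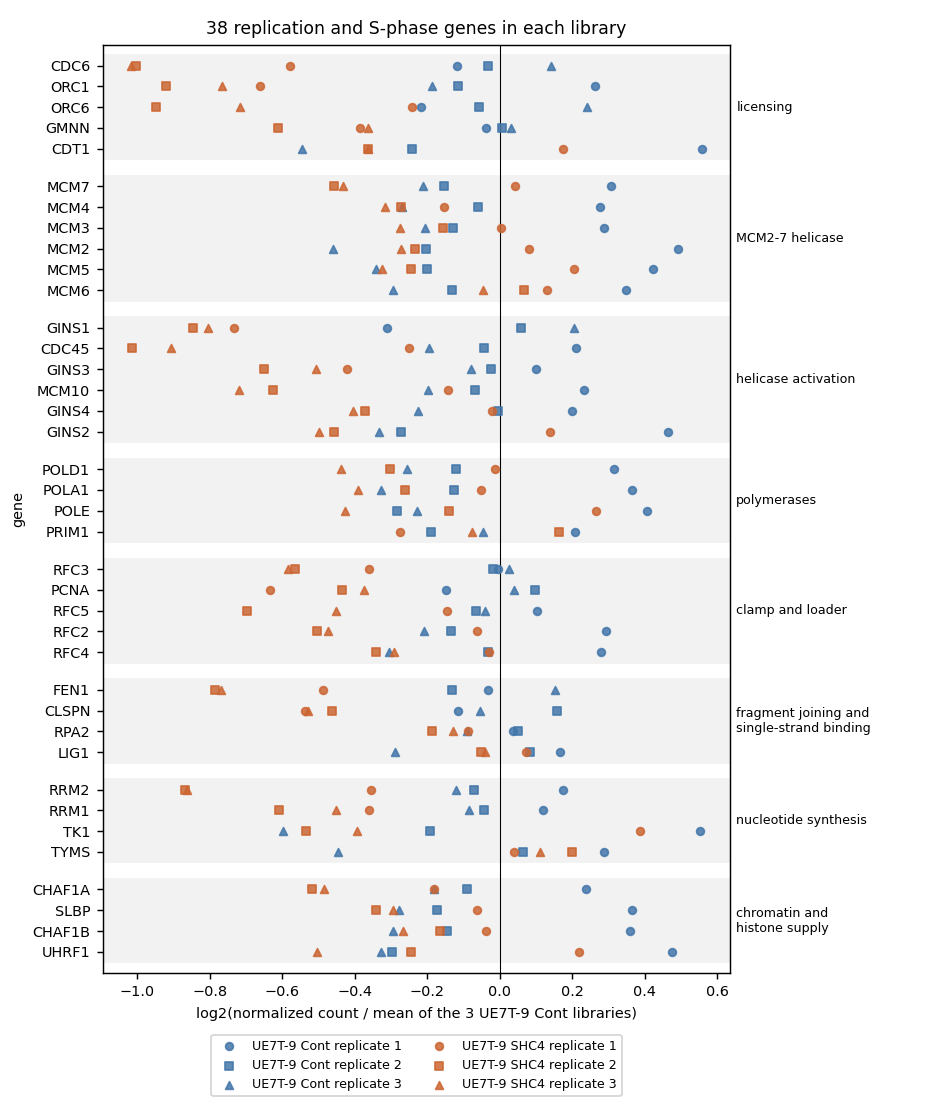
Normalized count of each of the 38 genes in each library, as log2 of its ratio to the mean of the 3 UE7T-9 Cont libraries (x axis), with genes grouped by role (y axis); blue marks UE7T-9 Cont, orange UE7T-9 SHC4, and the symbol shape the replicate number. The orange points lie left of all blue points in 15 genes, and the circles, replicate 1 of each group, are often the rightmost of their color.

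**Figure D2:**
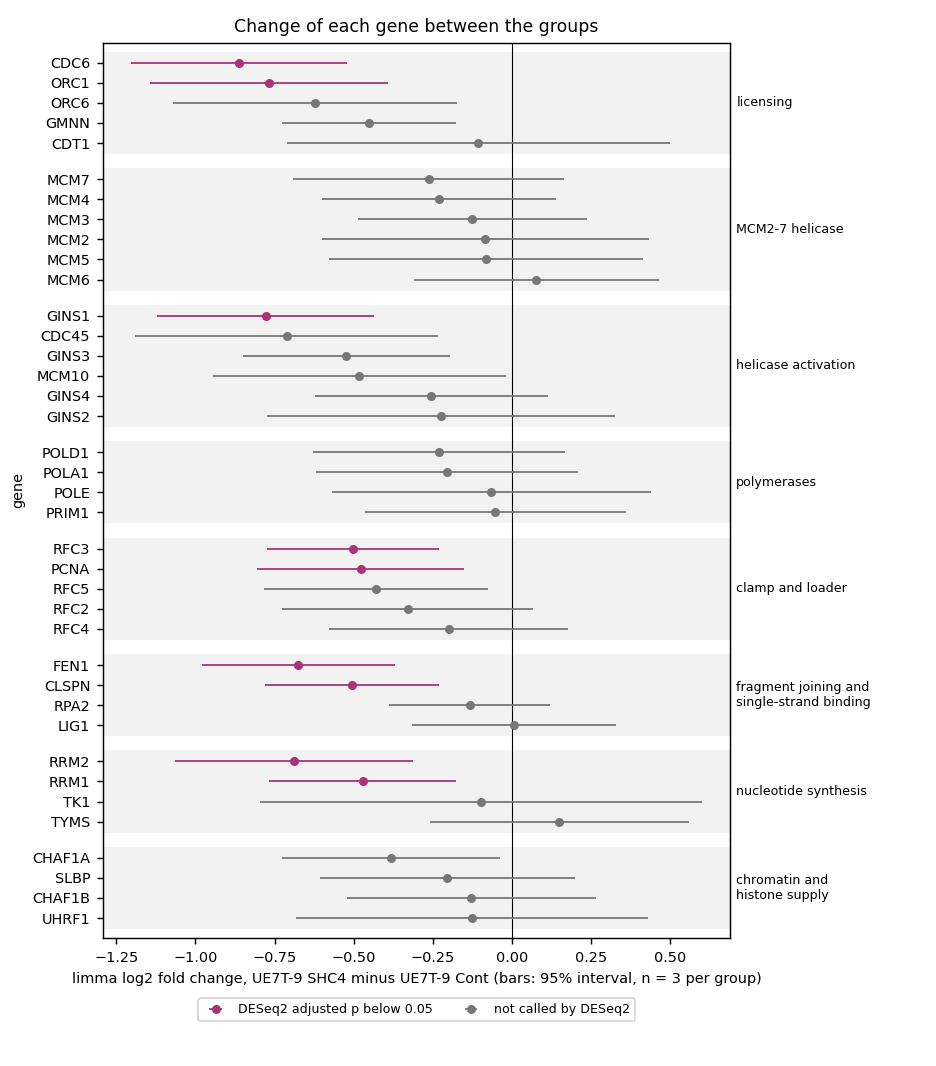
limma log2 fold change of each gene (x axis, UE7T-9 SHC4 minus UE7T-9 Cont; bars are 95% intervals, n = 3 per group) by role (y axis); purple marks the 9 genes with a DESeq2 adjusted p below 0.05. The interval lies wholly below 0 in 16 genes and all 6 intervals of the MCM2-7 helicase span 0.

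Promoter sequence is shown because many of these genes are textbook E2F targets, and members called by DESeq2 are set beside members that were not. Of the 38 members, 34 matched by symbol a RefSeq table of promoters (GRCh38.p14, 250 bases before to 50 after each start), with 45 promoters among them, and MCM4, MCM5, GINS4 and RPA2 did not. The words TTTCCCGC, TTTCGCGC, TTTGCCGC and TTTGGCGC, which are forms of the E2F motif, were searched on both strands, where some matches overlap on opposite strands. A match was found for 18 of the 34 members (52.9%) and for 3.99% of all 27305 genes of the table. CCAAT, the box bound by NF-Y, was found on either strand for 22 members (64.7%) and for 39.7% of all genes, and both words for 12 members. The 5 members called by DESeq2 with an E2F match and 4 MCM genes that were not called are printed 5′ to 3′ on the gene's strand, in capitals over the matching bases, with -1 the base before the start and +1 the first transcribed base.
CDC6, chr17:40287875-40287904, plus strand, match from base +8: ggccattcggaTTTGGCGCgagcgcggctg
GINS1, chr20:25407667-25407696, plus strand, match from base +6: agctttgttcgGCGCCAAAgcgcggagcgg
PCNA, chr20:5126663-5126692, minus strand, match from base -59: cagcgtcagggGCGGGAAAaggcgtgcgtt
RFC3, chr13:33818083-33818112, plus strand, match from base -55: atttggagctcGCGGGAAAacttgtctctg
CLSPN, chr1:35769965-35769994, minus strand, match from base -5: actctggctggGCGGGAAAgcaagaacagc
MCM2, chr3:127598404-127598433, plus strand, match from base +3: tgaaccactTTTCGCGCGAAAcctggttgt
MCM3, chr6:52284728-52284757, minus strand, match from base -4: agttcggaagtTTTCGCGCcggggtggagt
MCM6, chr2:135876513-135876542, minus strand, match from base -90: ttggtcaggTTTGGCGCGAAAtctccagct
MCM7, chr7:100101388-100101417, minus strand, match from base -9: ggggggcgacgTTTCGCGCcaatttcggtt
MCM3, MCM6 and MCM7 each had a further E2F match that is not printed, from base -174, -152 and -187. The other members printed had no further match. An E2F match was present in 5 of the 9 members called by DESeq2 and in 13 of the 25 other members in the table. RRM2, one of the called members without an E2F match, had 3 CCAAT boxes in the promoter shown, at -123, -93 and -66, in capitals, and its other promoter in the table had one, at -249.
RRM2, chr2:10122610-10122683, plus strand, match from base -123: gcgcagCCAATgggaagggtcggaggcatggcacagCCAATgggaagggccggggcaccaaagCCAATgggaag

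The licensing genes had the lowest median log2 fold change of the 8 roles, -0.62. All 5 were below 0, and in 4 of them the groups did not overlap. Differences between roles, or between genes of a role, were not tested. CDC6, the ATPase that helps the origin complex load the MCM ring (ENSG00000094804), had 1666, 1767 and 1995 in the controls against 1211, 902 and 894 with SHC4. Every UE7T-9 SHC4 library was below every control, and the UE7T-9 SHC4 mean was 0.554 of the UE7T-9 Cont mean (1003 ± 181 against 1809 ± 169, SD, n = 3). Its log2 fold change was -0.86 (95% interval -1.20 to -0.52), with an adjusted p of 0.0940 in limma and 0.000619 in DESeq2. ORC1, the largest subunit of the origin recognition complex (ENSG00000085840), had 499, 384 and 365 in the controls against 263, 219.7 and 245 with SHC4. The highest control was replicate 1, and the log2 fold change was -0.77 (95% interval -1.14 to -0.39, adjusted p = 0.137 in limma and 0.00890 in DESeq2). ORC6, another origin complex subunit, had a log2 fold change of -0.62, and GMNN, the geminin that blocks CDT1 after licensing, one of -0.45. Neither passed a test (adjusted p 0.221 and 0.184 in limma, 0.126 and 0.0605 in DESeq2), although their groups did not overlap either. For CDT1, the loader that geminin blocks, the groups overlapped: it had 1943, 1116 and 904 in the controls against 1489.7, 1027 and 1026 with SHC4. Its log2 fold change of -0.11 had an interval of -0.71 to 0.50. The control spread of CDT1, with replicate 1 well above the others, was wider than its difference between groups.

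The MCM2-7 helicase, the ring that those licensing factors load, showed no difference past the spread. The median log2 fold change of its 6 genes was -0.10, 5 were below 0, and the groups overlapped in all 6. MCM7 had 5597, 4063 and 3905 in the controls against 4657, 3293 and 3350.2 with SHC4 (log2 fold change -0.26, 95% interval -0.69 to 0.16), and 8.94% of its exon bases are shared with AP4M1 on the other strand. MCM4 had 8838, 7008 and 6059 in the controls against 6559.8, 6046 and 5859 with SHC4 (-0.23, -0.60 to 0.14). Both had their highest value in UE7T-9 Cont replicate 1. MCM6 had 4187, 3002 and 2685 in the controls against 3602, 3448 and 3188 with SHC4, with the controls on both sides of the UE7T-9 SHC4 values, and its log2 fold change of 0.08 (95% interval -0.31 to 0.46) turned to -0.03 with library size scaling. MCM2, MCM3 and MCM5 had log2 fold changes of -0.08, -0.13 and -0.08. The smallest adjusted p of the 6 was 0.558 in limma. The lowest bound of the 6 intervals was -0.69, for MCM7. The direction of the median rested on UE7T-9 Cont replicate 1: without it the median was 0.09 and 2 of the 6 were below 0, and without each other library it was from -0.26 (UE7T-9 Cont replicate 3) to -0.04 (UE7T-9 SHC4 replicate 3).

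The 6 genes that activate the ring all had a log2 fold change below 0, with a median of -0.50. GINS1 (ENSG00000101003) had 742, 957 and 1060.5 in the controls against 553, 512 and 526 with SHC4. The UE7T-9 SHC4 values lay within a narrow range below all controls, and here the lowest control was replicate 1. Its log2 fold change was -0.78 (95% interval -1.12 to -0.44, adjusted p = 0.111 in limma and 0.00218 in DESeq2). GINS3, whose groups did not overlap either, had 366, 336 and 323 in the controls against 255, 217 and 239.9 with SHC4, a log2 fold change of -0.52 that passed neither test (adjusted p 0.189 in limma and 0.0704 in DESeq2). GINS2 and GINS4, of the same complex, had log2 fold changes of -0.22 and -0.25 with overlapping groups. CDC45, the third component of the active helicase, had a log2 fold change of -0.71 without overlap (adjusted p 0.201 in limma and 0.0974 in DESeq2). MCM10, which acts at the start of unwinding, had a log2 fold change of -0.48 and was the member with the lowest level per kilobase of exon, 45.7 ± 7.11 normalized counts per kilobase in the controls against 32.9 ± 7.41 with SHC4.

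The polymerase genes overlapped between the groups in all 4 cases. POLA1, the catalytic subunit of the polymerase that primes each fragment, had 1589.9, 1133 and 985 in the controls against 1191, 1029.7 and 942 with SHC4 (log2 fold change -0.21, 95% interval -0.62 to 0.21). POLD1, the catalytic subunit of the lagging-strand polymerase, had 1372, 1016 and 924 in the controls against 1094, 894 and 814 with SHC4 (-0.23, -0.63 to 0.17). In both genes replicate 1 was the highest of each group. POLE, of the leading-strand polymerase, had a log2 fold change of -0.07 and the primase gene PRIM1 one of -0.05. The smallest adjusted p of these 4 was 0.588 in limma. Their median log2 fold change was -0.14, and 0.02 without UE7T-9 Cont replicate 1, where 2 of the 4 were below 0. Without each other library it was from -0.27 (UE7T-9 SHC4 replicate 1) to -0.09 (UE7T-9 SHC4 replicate 3).

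All 5 genes of the sliding clamp and its loader were below 0, with a median of -0.43. PCNA (ENSG00000132646), the clamp, had 8525, 10102 and 9711 in the controls against 6089, 6989 and 7282 with SHC4. The highest UE7T-9 SHC4 library lay below the lowest control, and replicate 1 was the lowest library in both groups. Its log2 fold change was -0.48 (95% interval -0.80 to -0.15, adjusted p = 0.206 in limma and 0.0402 in DESeq2). Per kilobase of exon PCNA had the highest level of the 38 genes in both groups, 6422 ± 558 normalized counts per kilobase in the controls against 4613 ± 423 with SHC4 (SD, n = 3). RFC3 (ENSG00000133119), a small subunit of the loader that opens the clamp, had 888, 881 and 907 in the controls against 694, 603 and 595 with SHC4. Its controls were nearly equal, and its log2 fold change was -0.50 (95% interval -0.77 to -0.23, adjusted p = 0.162 in limma and 0.0289 in DESeq2). RFC5, another loader subunit, had a log2 fold change of -0.43 without overlap, and passed neither test (adjusted p 0.271 in limma and 0.241 in DESeq2). RFC2 and RFC4 overlapped between the groups, at log2 fold changes of -0.33 and -0.20.

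Of the genes that finish and guard the new strand, FEN1 and CLSPN were called by DESeq2 and LIG1 and RPA2 were not. FEN1 (ENSG00000168496), the nuclease that trims Okazaki fragments, had 2150.4, 2008 and 2446 in the controls against 1569, 1277 and 1293 with SHC4. All 3 UE7T-9 SHC4 libraries were below the controls, with a mean of 0.627 of the UE7T-9 Cont mean, a log2 fold change of -0.68 (95% interval -0.98 to -0.37) and an adjusted p of 0.116 in limma and 0.00362 in DESeq2. CLSPN (ENSG00000092853), the claspin that carries the checkpoint signal at stalled forks, had 1178, 1423 and 1229.7 in the controls against 879, 926 and 884 with SHC4. Its UE7T-9 SHC4 values differed little from each other, and its log2 fold change was -0.51 (95% interval -0.78 to -0.23, adjusted p = 0.162 in limma and 0.0254 in DESeq2). LIG1, the ligase that seals the fragments FEN1 has trimmed, had 1764, 1666 and 1286 in the controls against 1652, 1517 and 1527 with SHC4. The UE7T-9 SHC4 libraries of LIG1 fell inside the control range, its log2 fold change was 0.0061 (95% interval -0.32 to 0.33), and that sign turned under library size scaling, DESeq2 and edgeR. RPA2, a subunit of the single-strand binding protein, had a log2 fold change of -0.13 (95% interval -0.39 to 0.12), and its groups overlapped.

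Of the genes of nucleotide supply, both subunits of ribonucleotide reductase were called lower by DESeq2 and the thymidine genes were not. RRM1 (ENSG00000167325), the large subunit of ribonucleotide reductase, had 5753, 5136 and 4992 in the controls against 4125, 3469 and 3866 with SHC4. RRM2 (ENSG00000171848), its small subunit in cycling cells, had 1646, 1389 and 1339.8 in the controls against 1141, 798 and 801 with SHC4. In both genes the groups did not overlap and replicate 1 was the highest of each group. The log2 fold change was -0.47 for RRM1 (95% interval -0.77 to -0.18, adjusted p = 0.188 in limma and 0.0362 in DESeq2) and -0.69 for RRM2 (95% interval -1.06 to -0.31, adjusted p = 0.162 in limma and 0.0288 in DESeq2). AC007240.1, which shares 20.2% of the RRM2 exon bases, averaged 2.03 and 2.91 normalized counts. TYMS, the thymidylate synthase, had 2421, 2074 and 1454 in the controls against 2038, 2277 and 2143 with SHC4. The lowest TYMS value was UE7T-9 Cont replicate 3 and the highest UE7T-9 Cont replicate 1, and its log2 fold change of 0.15 (95% interval -0.26 to 0.56) was the highest of the 38. ENOSF1 lies on the other strand over 39.1% of the TYMS exon bases and averaged 448 and 533 normalized counts, and whether the counting used strand is not given in the sources used here, so reads of these genes may be mixed. RRM2, MCM2, GINS3, GINS4 and PRIM1 also share at least 10% of their exon bases with another gene, which averaged at most 3.32 normalized counts in a group or, for PRIM1, was not listed. TK1, the thymidine kinase of S phase, had a log2 fold change of -0.10 and had the widest interval of the 38 (-0.80 to 0.60). The median of the 4 genes was -0.29. It was -0.10 without UE7T-9 Cont replicate 1, -0.16 without UE7T-9 SHC4 replicate 2 and -0.24 without UE7T-9 SHC4 replicate 3. In each of these cases 2 of the 4 were below 0. The median reached -0.46 without UE7T-9 SHC4 replicate 1.

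The 4 genes that serve new chromatin had a median log2 fold change of -0.17, with all 4 below 0. Without UE7T-9 Cont replicate 1 the median was 0.03 and 2 of the 4 were below 0, and without each other library it stayed below 0, reaching -0.31 without UE7T-9 SHC4 replicate 1. CHAF1A, the large subunit of the histone chaperone CAF-1, had 1715, 1367 and 1283 in the controls against 1282, 1015 and 1039.9 with SHC4. Its groups did not overlap, but only just, and the log2 fold change of -0.38 (95% interval -0.73 to -0.04) passed neither test (adjusted p 0.303 in limma and 0.265 in DESeq2). SLBP, which binds the stem-loop of histone mRNA, had 3482, 2398 and 2228 in the controls against 2589, 2131 and 2204 with SHC4 (-0.20, -0.61 to 0.20). UE7T-9 Cont replicate 1 stood above all other libraries for SLBP, and the other 5 lay close together. CHAF1B, the CAF-1 partner of CHAF1A, had a log2 fold change of -0.13 and UHRF1, which carries DNA methylation over to the new strand, one of -0.13.

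The libraries numbered 1 held much of the spread. UE7T-9 Cont replicate 1 had the highest value of its group in 29 of the 38 members (76.3%, against 36.1% of all genes tested), and UE7T-9 SHC4 replicate 1 in 33 members (86.8%, against 38.4%). Both were so in 27 members (71.1%, against 18.4%). No member had its highest value in a UE7T-9 SHC4 library: the highest was UE7T-9 Cont replicate 1 in 29, replicate 2 in 3 and replicate 3 in 6. Of all 23040 genes tested, the highest library was a control in 3901, 3611 and 5176. It was a UE7T-9 SHC4 library in 3663, 3611 and 3078. UE7T-9 Cont replicate 1 exceeded the mean of the other controls by a median of 0.39 on the log2 scale, from -0.44 for GINS1 to 0.94 for CDT1, and by 0.44 to 0.82 for the MCM2-7 genes. For UE7T-9 SHC4 replicate 1 the median was 0.29, from -0.32 for PRIM1 to 0.85 for TK1. Across the 38 members, which share these libraries, the offsets of the libraries numbered 1 had a Pearson r of 0.43 and a Spearman rho of 0.44. The stromal markers COL1A1 and COL1A2 were also high in these libraries. COL1A1 had 315042, 87857 and 67813 in the controls against 276719, 130035 and 122241 with SHC4. COL1A2 had 238109, 106936 and 74827 in the controls against 210247, 178051 and 180862 with SHC4. Not all 8 stromal markers did so: UE7T-9 Cont replicate 1 was the highest control in 6 and the lowest in 2. UE7T-9 SHC4 replicate 1 was the highest of its group in 5. LUM went the other way, with 7698, 8815 and 10419 in the controls against 6406, 11432 and 12375 with SHC4. The part of these markers in the result was not tested, and neither the labels nor the study's methods name a batch.

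**Figure D3:**
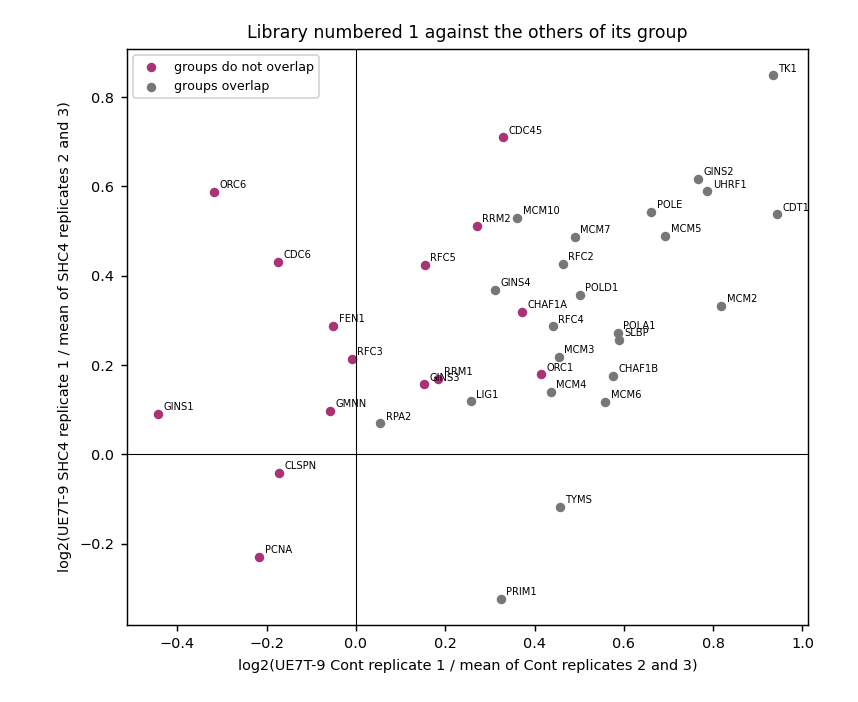
Each point is one of the 38 genes: log2 of UE7T-9 Cont replicate 1 over the mean of the other controls (x axis) against the same for UE7T-9 SHC4 replicate 1 (y axis); purple genes are those whose groups do not overlap. Most points lie right of and above 0, with medians of 0.39 and 0.29, and GINS1, ORC6 and PCNA lie furthest left.

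Without these libraries more members were called, on fewer samples. Leaving out UE7T-9 Cont replicate 1 alone, limma called CDC6, GINS1, FEN1 and CLSPN lower, 4 of 38, against 2.69% of all genes, the median log2 fold change moved from -0.24 to -0.11, and 13 members were above 0. Leaving out UE7T-9 SHC4 replicate 1 alone, it called CDC6 lower, where 15 of all genes were called lower and 52 higher. Leaving out both, it called 13 of the 38 lower and 0 higher, against 4.33% of all genes called lower, with a median of -0.22 and 7 members above 0. DESeq2 without both libraries also called 13 lower, against 6.85% of its genes, and the 13 were the same. They were ORC1, ORC6, CDC6, GMNN, CDC45, GINS1, PCNA, RFC3, RFC5, FEN1, CLSPN, RRM1 and RRM2. CDC6 then had a log2 fold change of -1.06 (limma adjusted p = 0.00183) and GINS1 of -0.96 (limma adjusted p = 0.00317). MCM2 and MCM6 had log2 fold changes of 0.08 and 0.22 in the limma fit and were not called (limma adjusted p = 0.732 and 0.257).

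Further genes of replication and of the cell cycle mostly had log2 fold changes below 0. Of 52 other replication genes, 44 had a log2 fold change below 0, with a median of -0.23. The groups did not overlap in 22 that were lower, against 10.2% of all genes. They also did not overlap in 1 that was higher, against 2103 of all 23040 genes tested. limma and edgeR called 0 of them, 14 had an unadjusted limma p below 0.05, all lower, against 6.96% of all genes, and DESeq2 called MCM8, a helicase of recombination repair, against 2.08% of its genes called lower. MCM8 had 1384, 1468 and 1510.0 in the controls against 961, 799.9 and 862 with SHC4 (log2 fold change -0.74, adjusted p = 0.0812 in limma and 0.000186 in DESeq2). All its UE7T-9 SHC4 values lay below the controls. Of 30 E2F and G1/S regulators, 22 were below 0 with a median of -0.20, which was -0.12 without UE7T-9 Cont replicate 1 and -0.11 without UE7T-9 SHC4 replicate 3. limma and edgeR called 0 of the 30, 8 had an unadjusted limma p below 0.05, all lower (6.96% of all genes were), and DESeq2 called CDK6 and E2F7 lower (2.08% of its genes were). CDK6, a kinase that phosphorylates RB, had 711, 752 and 978 in the controls against 564, 486 and 483 with SHC4. E2F7, a repressor of the E2F family, had 2303, 3818 and 3744 in the controls against 1674, 1947 and 2097 with SHC4. The groups overlapped in neither gene, and the log2 fold changes were -0.66 and -0.76 (adjusted p = 0.155 and 0.183 in limma, 0.0195 and 0.0204 in DESeq2).

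Genes of mitosis were mostly below 0 as well. Of 25, 22 were below 0 with a median of -0.27, beside the median of -0.24 of the replication genes. Without UE7T-9 Cont replicate 1 the median of the mitosis genes was -0.15 and 16 were below 0, while without UE7T-9 Cont replicate 2 it was -0.44 and without UE7T-9 SHC4 replicate 1 -0.41. limma and edgeR called 0 of the 25, and 9 had an unadjusted limma p below 0.05, all lower, beside 6.96% of all genes. DESeq2, which called 2.08% of its genes lower, called CDK1, the kinase that drives entry into mitosis, and BUB1, a spindle checkpoint kinase. CDK1 had 2280.0, 1980.2 and 2473 in the controls against 1527, 1527 and 1697 with SHC4, and BUB1 had 1278, 1259.7 and 1612 in the controls against 996, 929 and 975 with SHC4. Neither gene overlapped between the groups, and their log2 fold changes were -0.50 and -0.51 (adjusted p = 0.176 and 0.180 in limma, 0.0332 and 0.0445 in DESeq2). For mitosis genes the mean log2 level was 10.37, 9.90 and 10.30 in the controls against 10.12, 9.81 and 9.85 with SHC4, and the low control was replicate 2. For the replication genes it was 10.66, 10.37 and 10.27 against 10.31, 10.01 and 10.01, and the low control was replicate 3, so the lists did not order the controls alike.

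**Figure D4:**
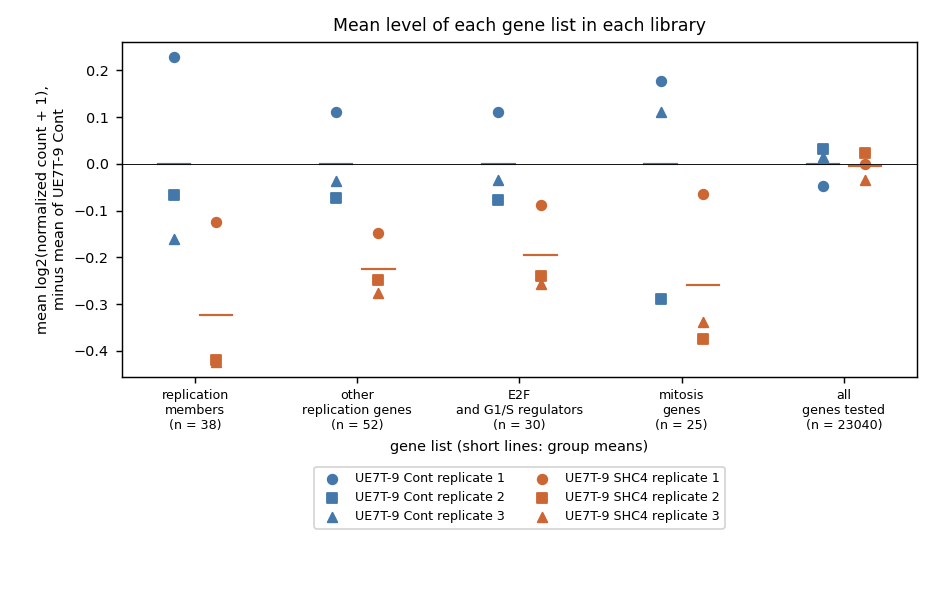
Mean of log2(normalized count + 1) over each gene list in each library, minus the mean of the 3 UE7T-9 Cont libraries (y axis), for the 38 replication genes, 52 other replication genes, 30 E2F and G1/S regulators, 25 mitosis genes and all 23040 genes tested (x axis); short lines are group means. In the 4 named lists the UE7T-9 SHC4 mean lies below the UE7T-9 Cont mean, and for all genes tested the means nearly coincide.

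The replication-dependent histone genes, whose mRNAs SLBP binds and which are made in S phase, were mostly below 0. Of 45 listed, 39 passed the filter and 33 of these were below 0, with a median of -0.73. Many were near the floor of 3 reads, which was 2.50 to 3.53 normalized counts. Without UE7T-9 Cont replicate 2 the median was -0.41 and 27 were below 0. limma and edgeR called 0 of the 39, and 7 had an unadjusted limma p below 0.05, all lower, where 6.96% of all genes did. Apart from H4C8, these 7 genes had at most 36 reads in any library. DESeq2, with 2.08% of its genes called lower, called H4C8, which had 124, 443 and 160.3 in the controls against 63.3, 74.9 and 118 with SHC4. UE7T-9 Cont replicate 2 was the highest library for 28 of the 39 histone genes, where it was the highest for 3 of the 38 replication genes and for 3611 of all 23040 genes tested.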

How the data were processed

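The 6 RNA libraries, 3 of UE7T-9 Cont and 3 of UE7T-9 SHC4, were prepared with a NEBNext Ultra RNA kit and sequenced on a NovaSeq 6000 by Novogene. The submitters' processing notes name HISAT2 2.0.5, featureCounts 1.5.0-p3 and DESeq2. The genome build, the annotation and the use of strand are not given in the sources used here. The authors deposited a signal per gene, the count divided by 1 size factor per library (normalized count), and dividing by the value of 1 read gave whole reads for 100% of values (tolerance 0.01). Precision from counting alone was within 8.77% for every member value. The floor covers counting error only, and the 95% intervals are limma's, from the spread between libraries.

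Genes whose mean over the 6 libraries reached 1 normalized count (23040) were tested on log2(value + 1) with limma 3.58.1 (trend) in R 4.3.3, with Benjamini-Hochberg adjustment over all of them and a threshold of 0.05, without a fold threshold. DESeq2 1.42.0 and edgeR 4.0.16 (quasi-likelihood) were run on the recovered reads. The scripts were tested on simulated data. Other scalings, filters and pseudocounts, a replicate block and fits without each library were alternatives. Groups and replicate numbers came from the labels. Exon lengths and overlaps came from GENCODE 29, and promoters from RefSeq. Values in every library were given for members called by any tool, for the 2 with the smallest limma p of each of 8 roles and for the 3 highest and 3 lowest log2 fold changes. From each other list at most 4 genes were named, those called by a tool or else those with the smallest p. CDT1, COL1A1, COL1A2 and LUM were chosen after their values were seen. The members, the lists and the tests were chosen with earlier results of these data known.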

Additional observations from a re-analysis of the deposited data

How the results depend on the processing

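The median log2 fold change of the 38 replication genes stayed below 0 in every fit run, from -0.39 to -0.11 when single libraries were left out, -0.35 with library size scaling (which moved the median of all genes to -0.10) and -0.23 with TMM scaling. No fit called a member higher. Members called lower numbered 0 with limma, edgeR and limma-voom, 9 with DESeq2, 0 to 4 without single libraries (4 without UE7T-9 Cont replicate 1, 1 without UE7T-9 SHC4 replicate 1), and 13 without both libraries numbered 1 (13 with DESeq2 as well). Members above 0 numbered 3, 1 with library size scaling, 0 to 13 without single libraries (13 without UE7T-9 Cont replicate 1, 0 without UE7T-9 Cont replicate 3, 7 without UE7T-9 SHC4 replicate 3), and 7 without both libraries numbered 1 (7 with DESeq2 as well). The genes called among all tested numbered 15, and 24 with library size scaling, 25 with TMM scaling, 43 without a filter on low values, 669 with DESeq2, 9 with limma-voom, 2 to 1311 without single libraries (1311 without UE7T-9 Cont replicate 1, 6 without UE7T-9 Cont replicate 2, 67, 2 and 2 without UE7T-9 SHC4 replicates 1, 2 and 3), and 2217 without both libraries numbered 1 (2313 with DESeq2). For the other replication genes the count in either direction was 0, and 1 with DESeq2. It was 0 to 2 without single libraries (2 without UE7T-9 Cont replicate 1, 1 lower and 1 higher). Without both libraries numbered 1 it was 5, with 3 lower and 2 higher (4 with DESeq2). POLD2 was higher in both of these limma fits (log2 fold change 0.88 and 0.85). RNASEH2B was called higher by limma only without both libraries numbered 1 (0.60). For the E2F and G1/S regulators the count was 0, and 2 with DESeq2. It was 0 to 3 without single libraries (3 without UE7T-9 Cont replicate 1, all lower). Without both libraries numbered 1 it was 5, all lower (6 with DESeq2). MCM6 turned to -0.026 with library size scaling and ranged from -0.057 to 0.26 without single libraries, and TYMS from -0.060 to 0.31. LIG1 turned to -0.097 with library size scaling, -0.0058 with DESeq2 and -0.0016 with edgeR, and ranged from -0.13 to 0.096 without single libraries; the lowest values of all 3 genes were without UE7T-9 Cont replicate 3, and LIG1 was -0.033 without UE7T-9 SHC4 replicate 1. Of 323 values of the 19 members described in full, under 17 alternatives, 283 kept their direction and side of the threshold, 32 passed it and 8 reversed. The cause of these changes was not tested.

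The replicate numbers were not taken as pairs, because the correlation of same-numbered libraries' deviations from the group means over 23040 genes was 0.148, 0.013 and -0.007 for numbers 1, 2 and 3, above 0.1 for number 1 only, and only the libraries numbered 1 correlated best with their own number. With a replicate block, 47 of all genes and 0 members were called. Member values rested on 130 to 9872 reads in a library, with a counting error of at most 8.77%.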

Other observations

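RRM2B, the small ribonucleotide reductase subunit induced by p53, had 6189, 10771 and 10201 in the controls against 5445, 8904 and 9817 with SHC4. Unlike RRM2, its groups overlapped, and its log2 fold change was -0.17 (95% interval -0.79 to 0.44, limma adjusted p = 0.816). RRM2B was chosen after its values were seen. PDGFRB, a receptor of stromal cells, was the marker that DESeq2 called higher, with 4122, 1487 and 1678 in the controls against 6634, 5281 and 5178 with SHC4 (limma log2 fold change 1.38, adjusted p = 0.162 in limma and 0.0171 in DESeq2). KRT18, a keratin listed as an epithelial marker, was called lower by DESeq2, with 41.9, 37.7 and 112 in the controls against 21.1, 3.33 and 3.49 with SHC4 (limma log2 fold change -2.92, adjusted p = 0.158 in limma and 0.00804 in DESeq2), and in UE7T-9 SHC4 its highest value was in replicate 1.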
